A study of Homo sapiens with 6 samples.

Results

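The ATP-binding cassette (ABC) genes were taken as every row of the deposited RNA-sequencing table whose symbol consists of ABC, a subfamily letter from A to G and a number, which gave 45 of 27216 rows. Of these 45 genes, 25 had a mean of at least 1 over the 6 samples on the log2(FPKM + 1) scale and were tested, and 20 lay under it. By known role, 11 of the 45 were placed with drug and conjugate efflux, 21 with lipids, 4 with mitochondria, 5 with other membrane functions and 4 with non-transport functions. The samples were H1975 cells, a human EGFR-mutated non-small cell lung cancer (NSCLC) line, in 3 replicates labelled as treated for 0 h (parental) and 3 labelled as treated for 72 h with 1000 nM of the EGFR tyrosine kinase inhibitor osimertinib (Osi; adapted). All 6 samples were wild type by their labels and were made from the same line. Cells that had undergone apoptosis were washed away before the RNA of the remaining cells was extracted, so the adapted samples represent only the cells that remained. The parental columns of the table are headed DMSO, whereas the sample labels give 0 h of Osi, and it is not stated whether those cells were untreated or kept in the solvent. The labels do not say that replicates were separate cultures, so the p-values below measure only the spread between these samples, which may be technical.

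ABC proteins bind and hydrolyse ATP through a conserved pair of nucleotide-binding domains, and most use this energy to move a substrate across a membrane. Members of subfamilies A and G carry mainly lipids, and members of subfamilies B and C export drugs, conjugates, peptides and metal-linked substrates. Members of subfamily D other than ABCD4 import fatty acyl-CoA into peroxisomes. Members of subfamilies E and F lack membrane domains and act on ribosomes and translation. In lung cancer cells, ABCB1 (P-glycoprotein), ABCG2 (breast cancer resistance protein) and ABCC1 (multidrug resistance-associated protein 1) are the classical drug exporters, and Osi is known as a substrate of ABCB1 and ABCG2.

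The deposited values were read as log2(FPKM + 1), where FPKM is fragments per kilobase of transcript, scaled to the sequenced total, and their linear sums lay between 375342 and 387753 per sample. Correlations between replicates were 0.997 or above among the parental samples and 0.996 between adapted replicates 2 and 3, against 0.991 between adapted replicate 1 and either of them. All 7 epithelial markers were detected, at no less than 6.05 log2(FPKM + 1) in any sample. Among markers of other cell types, CD3E was listed at 0 in all samples and PTPRC reached no more than 0.08, while the summed FPKM of 3 leukocyte markers went from between 73.7 and 76.3 in the parental samples to between 14.6 and 29.6 in the adapted samples, almost entirely through CD68, a lysosomal protein. The summed FPKM of 4 fibroblast markers went from between 3.0 and 3.12 to between 8.11 and 8.89, mainly through COL1A1, a collagen chain. That of 3 endothelial markers lay between 1.13 and 1.86 in the parental samples and between 1.42 and 3.47 in the adapted samples, and hid opposite moves, since the mean FPKM of PECAM1 went from 1.35 to 0.0634 and that of CDH5, an endothelial cadherin, from 0.156 to 2.39 (limma adjusted p = 0.00307 and 0.0136 in a fit without the filter on low values). The part of these markers in the results below was not tested. The labels describe a digestion with RNase R, which degrades linear RNA, before library preparation, and how this affected the level of single mRNAs is not known here.

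After 72 h of Osi, ABC genes moved in both directions. ABCA3, ABCC5 and ABCC10 were among those that rose most, and ABCA1, ABCC2, ABCA12, ABCC3 and ABCB6 fell most. Of the 25 tested genes, 18 (72.0%) passed an adjusted p of 0.05 in limma, compared with 56.9% of the 12656 rows tested. In direction, 11 genes (44.0%) rose, against 30.7% of all rows, and 7 (28.0%) fell, against 26.2%. A log2 fold change of at least 1 in size was reached by 7 of the 25 genes, 3 higher (against 5.31% of rows) and 4 lower (against 5.18%), which together compares with 10.5% of all rows. The 3 parental and 3 adapted values did not overlap for 19 genes (76.0%), against 66.3% of all rows. The median log2 fold change was 0.26 over the 25 genes and 0.03 over all rows, and the median size of the change, regardless of sign, was 0.49 and 0.31. Leaving out 1 sample at a time gave between 15 and 21 genes past the threshold, and between 5763 and 8370 of all rows.

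**Figure D1:**
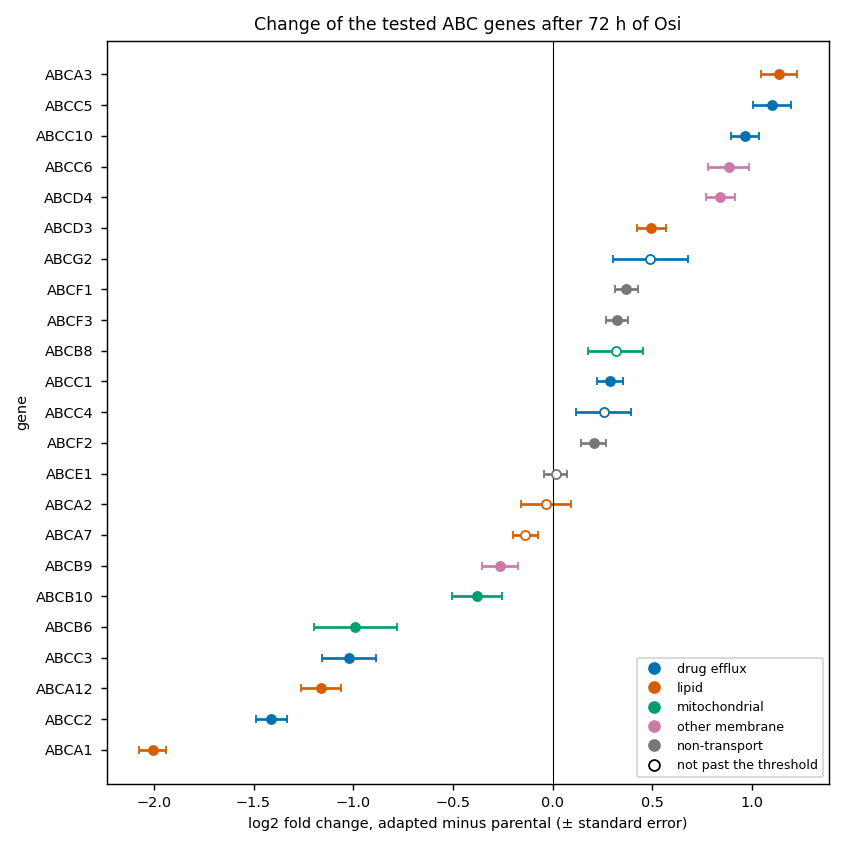
Log2 fold change (adapted minus parental; x axis, bars are limma standard errors, 3 samples per group) of the tested ABC genes that are reported (y axis), coloured by class, with filled points for adjusted p under 0.05. The points run from -2.0 for ABCA1 to 1.13 for ABCA3, and genes of the drug efflux and lipid classes lie on both sides of 0.

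Among the 7 tested drug efflux genes, 3 rose (ABCC5, ABCC10 and ABCC1), 2 fell (ABCC2 and ABCC3) and 2 did not pass the threshold (ABCC4 and ABCG2). The share past it was 71.4%, against 56.9% of all rows. The median log2 fold change of the class was 0.29. ABCC2 (MRP2), which exports conjugated organic anions at apical membranes, spans chromosome 10, 99782640 to 99852594 (plus strand; gene coordinates here and below are from GENCODE v29 on GRCh38). Its level was 4.78, 4.86 and 4.82 log2(FPKM + 1) in the parental replicates and 3.26, 3.47 and 3.50 in the adapted replicates. All adapted values lay far under the lowest parental value, and the log2 fold change was -1.41 (SE 0.08, limma adjusted p = 1.53e-05). In FPKM the mean went from 27.3 to 9.67. ABCC3 (MRP3), the basolateral exporter of conjugates, spans chromosome 17, 50634777 to 50692252 (plus strand), and was the most abundant ABC gene of the parental cells. It measured 6.27, 6.30 and 6.25 log2(FPKM + 1) in the parental replicates and 5.59, 5.05 and 5.12 in the adapted replicates. The groups did not overlap, although adapted replicate 1 stood above the other adapted samples, and the log2 fold change was -1.02 (SE 0.13, adjusted p = 5.95e-04). Its mean FPKM was 76.4 ± 1.32 (SD, n = 3) in parental and 37.7 ± 8.12 (SD, n = 3) in adapted cells.

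ABCC5 (MRP5), an exporter of cyclic nucleotides and nucleotide analogues, rose most in this class. Its gene lies at chromosome 3, 183919934 to 184018015 (minus strand). The parental values were 2.82, 2.83 and 2.75 log2(FPKM + 1) and the adapted values 3.70, 4.01 and 3.99, with a log2 fold change of 1.10 (SE 0.09, adjusted p = 9.25e-05). ABCC10 (MRP7), which confers resistance to taxanes, had parental values of 2.23, 2.37 and 2.32 log2(FPKM + 1) and adapted values of 3.23, 3.27 and 3.32. Its log2 fold change was 0.97 (SE 0.07, adjusted p = 4.71e-05), close to that of ABCC5. Both genes therefore had every adapted value above every parental value, with mean FPKM going from 5.97 to 14.0 for ABCC5 and from 3.96 to 8.68 for ABCC10. ABCC1, the glutathione-conjugate and drug exporter, measured 4.0, 4.05 and 4.03 log2(FPKM + 1) in parental and 4.21, 4.33 and 4.39 in adapted cells. Its groups also stood apart, by a smaller amount, with a log2 fold change of 0.29 (SE 0.07, adjusted p = 0.00792). ABCC4 (MRP4), an exporter of cyclic nucleotides and prostaglandins, had parental values of 3.90, 4.04 and 3.79 and adapted values of 4.48, 4.0 and 4.02 log2(FPKM + 1), and the groups overlapped (log2 fold change 0.26, SE 0.14, adjusted p = 0.15).

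The drug exporters that are known to carry Osi were both low. ABCG2 measured 0.85, 0.87 and 1.06 log2(FPKM + 1) in the parental replicates and 1.0, 1.76 and 1.48 in the adapted replicates. Adapted replicate 1 lay within the parental range and the other adapted replicates lay above it. The log2 fold change was 0.49 (SE 0.19, limma adjusted p = 0.0586), and without adapted replicate 1 it was 0.69 (adjusted p = 0.00163). ABCB1 had a mean of 0.88, under the filter. Its values were 0.53, 0.42 and 0.43 log2(FPKM + 1) in parental and 2.39, 0.81 and 0.71 in adapted cells, so that the groups did not overlap but adapted replicate 1 stood far above all other samples. In a fit of all 27216 rows without the filter, where 29.5% of rows passed the threshold, ABCB1 changed by 0.84 log2 units (limma adjusted p = 0.305), and 0.30 (adjusted p = 0.0244) without adapted replicate 1. Leaving out any other sample gave log2 fold changes from 0.82 to 1.14 and adjusted p from 0.239 to 0.468. Hence the size of the ABCB1 difference rested on adapted replicate 1. The remaining members of the class were barely detected: ABCC11 reached no more than 0.08, ABCB5 was above 0 only in parental replicate 3 (0.03), and ABCC12 was listed at 0 in all samples.

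**Figure D2:**
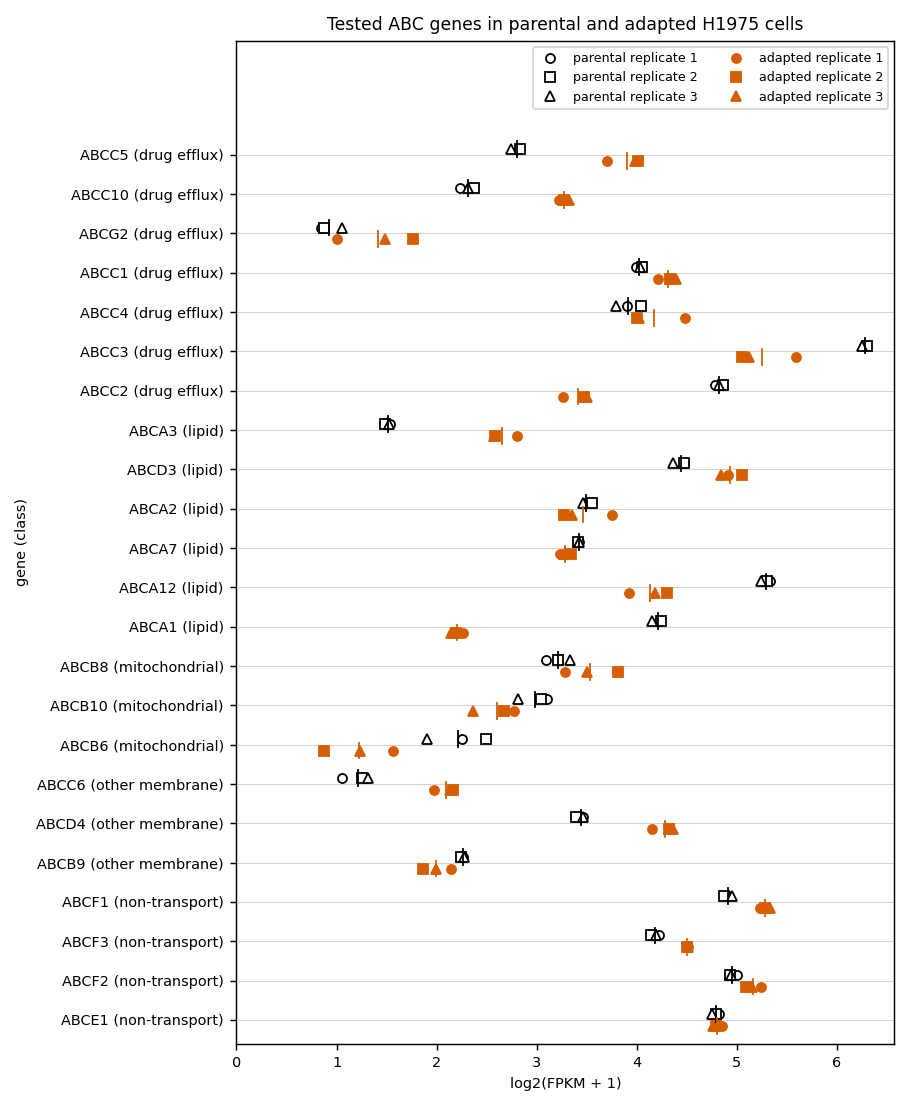
Level of the tested ABC genes that are reported (y axis, with class) in log2(FPKM + 1) (x axis), with open black symbols for the 3 parental and filled orange symbols for the 3 adapted replicates, the symbol shape giving the replicate number and vertical ticks the group means. ABCC3 is the highest gene of the parental cells at 6.27, and the 3 values of each group lie clear of each other for ABCA1, ABCC2, ABCC5 and ABCC10.

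Among the 21 lipid genes, 7 were tested, of which 2 fell (ABCA1 and ABCA12), 2 rose (ABCA3 and ABCD3) and 3 did not pass the threshold. The share past it was 57.1%, near the 56.9% of all rows. The median log2 fold change of these 7 was -0.04. ABCA1, the exporter of cholesterol and phospholipid to apolipoprotein A-I, fell most of all ABC genes. It spans chromosome 9, 104781002 to 104928237 (minus strand). Its values were 4.23, 4.24 and 4.15 log2(FPKM + 1) in parental and 2.27, 2.19 and 2.15 in adapted cells, with a log2 fold change of -2.0 (SE 0.07, limma adjusted p = 2.08e-06). The mean FPKM was 17.5 ± 0.63 (SD, n = 3) in parental and 3.60 ± 0.19 (SD, n = 3) in adapted cells, and both groups were tight. ABCA12, the carrier of glucosylceramide into lamellar granules of keratinocytes, spans chromosome 2, 214931542 to 215138428 (minus strand). It measured 5.34, 5.30 and 5.24 log2(FPKM + 1) in parental and 3.92, 4.30 and 4.18 in adapted cells, with no overlap (log2 fold change -1.16, SE 0.10, adjusted p = 9.25e-05).

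ABCA3, which loads surfactant phospholipid into lamellar bodies of alveolar type II cells, moved the other way. It spans chromosome 16, 2275881 to 2340746 (minus strand). Its parental values were 1.54, 1.49 and 1.53 log2(FPKM + 1) and its adapted values 2.80, 2.58 and 2.57, with a log2 fold change of 1.13 (SE 0.09, limma adjusted p = 6.01e-05) and a mean FPKM going from 1.86 to 5.30. ABCD3 (PMP70), the peroxisomal importer of branched-chain acyl-CoA, measured 4.47, 4.47 and 4.37 log2(FPKM + 1) in parental and 4.91, 5.05 and 4.84 in adapted cells. All adapted values were higher, with a log2 fold change of 0.50 (SE 0.07, adjusted p = 0.00104). ABCA7, a phospholipid exporter related to ABCA1, had 3.42, 3.41 and 3.42 log2(FPKM + 1) in parental and 3.23, 3.35 and 3.27 in adapted cells. Its groups did not overlap but the difference did not pass the threshold (log2 fold change -0.14, adjusted p = 0.0951), and in the fit of all rows it did (adjusted p = 0.0455). ABCA2, an endolysosomal lipid transporter, had a log2 fold change of -0.04 (adjusted p = 0.826), with adapted replicate 1 at 3.76 above the parental range of 3.46 to 3.55 and adapted replicates 2 and 3 at 3.27 and 3.35 under it. Without adapted replicate 1 its log2 fold change was -0.18 (adjusted p = 0.0307).

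The upstream sequences of the genes that fell most (ABCA1 and ABCC2) and of a riser in each of the same classes (ABCA3 and ABCC5) are given to set genes that fell beside genes that rose. Each runs 5′ to 3′ on the gene's strand over the 250 bases before the RefSeq start on GRCh38.p14, and capitals mark matches, on either strand, to the motifs named after them.
ABCA1, chr9:104928156-104928405, minus strand: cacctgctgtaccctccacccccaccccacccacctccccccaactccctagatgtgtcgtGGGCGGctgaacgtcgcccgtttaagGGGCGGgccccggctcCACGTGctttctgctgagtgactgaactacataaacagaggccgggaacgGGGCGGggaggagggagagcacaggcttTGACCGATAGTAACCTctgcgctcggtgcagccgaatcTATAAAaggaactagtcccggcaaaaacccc
ABCC2, chr10:99782390-99782639, plus strand: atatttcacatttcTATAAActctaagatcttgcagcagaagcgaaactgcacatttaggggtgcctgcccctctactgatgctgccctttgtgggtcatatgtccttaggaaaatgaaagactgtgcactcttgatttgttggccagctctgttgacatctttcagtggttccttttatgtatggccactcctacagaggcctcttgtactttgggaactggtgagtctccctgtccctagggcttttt
ABCA3, chr16:2340729-2340978, minus strand: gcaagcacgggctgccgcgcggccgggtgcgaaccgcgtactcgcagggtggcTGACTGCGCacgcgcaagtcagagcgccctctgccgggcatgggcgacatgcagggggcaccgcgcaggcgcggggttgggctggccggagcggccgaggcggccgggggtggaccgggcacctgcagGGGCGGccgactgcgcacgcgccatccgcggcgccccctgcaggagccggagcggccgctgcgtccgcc
ABCC5, chr3:184017885-184018134, minus strand: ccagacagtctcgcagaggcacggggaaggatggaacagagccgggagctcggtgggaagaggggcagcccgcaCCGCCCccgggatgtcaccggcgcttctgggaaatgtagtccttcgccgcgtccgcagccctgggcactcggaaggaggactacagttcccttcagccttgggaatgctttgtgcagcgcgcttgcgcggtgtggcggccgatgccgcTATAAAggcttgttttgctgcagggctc
Positions are counted back from the start, which is not included. In ABCA1 the capitals are GC boxes (GGGCGG) at -189 to -184, -163 to -158 and -97 to -92, an E-box (CACGTG) at -147 to -142, a TATA box (TATAAA) at -31 to -26, and a reverse-strand match, at -69 to -54, to AGGTNA and NGGTCA separated by 4 bases, a relaxed form of the direct repeat bound by the liver X receptors (LXR) whose letters were chosen after this sequence was seen. That relaxed form occurred in 0.0797% of 35116 RefSeq promoter windows of this length. Because its letters were fitted to ABCA1, the match there was fixed in advance, so this share says nothing about ABCA1. The unrelaxed repeat was in 0 of the 35 ABC genes with a window. In ABCC2 the capitals are TATAAA at -236 to -231. In ABCA3 they are an antioxidant response element core (TGACNNNGC) at -197 to -189 and a GC box at -69 to -64. In ABCC5 they are a reverse-strand GC box at -176 to -171 and TATAAA at -28 to -23. None of these matches overlap. The GC content of the windows was 61.6% for ABCA1, 45.6% for ABCC2, 79.2% for ABCA3 and 64.8% for ABCC5, against a median of 58.0% over all windows.

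A window was found for 35 of the 45 ABC genes, 15 of the 18 past the threshold among them. Some genes have several windows, so that the 9 risers with a window had 11 and the 6 fallers had 9. The GC box was present in 8 of the 11 riser windows, 6 of the 9 faller windows and 42.6% of all windows. The E-box was present in 2 of the 11, 4 of the 9 and 6.34%, with ABCA1, ABCA12, ABCB6 and ABCB9 among the fallers and ABCC10 and ABCF1 among the risers. The antioxidant response element core was present in 4 of the 11, 2 of the 9 and 10.9%, and the CCAAT box (CCAAT) in 1 of the 11, 3 of the 9 and 32.0%. For the TATA box these were 2 of the 11, 2 of the 9 and 10.7%. The AP-1 motif (TGANTCA), the sterol response element core (TCACNCCAC) and the unrelaxed LXR direct repeat (AGGTCA repeated after 4 bases) were in none of these windows, and in 6.57%, 0.883% and 0.0142% of all windows. These are letter matches in a short window and were not tested as binding sites.

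ABCA1 is a target of the LXR nuclear receptors, which sense oxysterols, so other genes of that pathway and of cholesterol supply were read beside it. Of 13 tested LXR receptors and targets, 5 fell, 2 rose and 6 did not pass the threshold, with a median log2 fold change of -0.13. The share past the threshold was 53.8%, near the 56.9% of all rows. SCD, the stearoyl-CoA desaturase, fell by 0.93 log2 units (adjusted p in limma = 5.28e-04) and SREBF1, the regulator of fatty acid synthesis, fell by 0.83 (adjusted p = 5.02e-04). NR1H2, which encodes LXR beta, rose (log2 fold change 0.44, adjusted p = 9.48e-04), as did its partner RXRB (0.24, adjusted p = 0.012; 0.0508 without parental replicate 1). NR1H3, which encodes LXR alpha and was chosen after its values were seen, had a log2 fold change of -0.78. ABCG1, the LXR target that passes cholesterol to high-density lipoprotein, was at 0, 0 and 0.01 log2(FPKM + 1) in parental and 0, 0.10 and 0.10 in adapted cells, too low to be tested. Of 10 genes of cholesterol uptake, synthesis and traffic, 6 rose, 1 fell and 3 did not pass the threshold, with a median log2 fold change of 0.34. Here 70.0% passed it, against 56.9% of all rows. SQLE, the squalene epoxidase, rose by 1.03 (adjusted p = 1.07e-04) and INSIG1, the sterol-sensing brake on synthesis, by 0.71 (adjusted p = 0.00424). All of these changes were smaller in size than that of ABCA1.

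**Figure D3:**
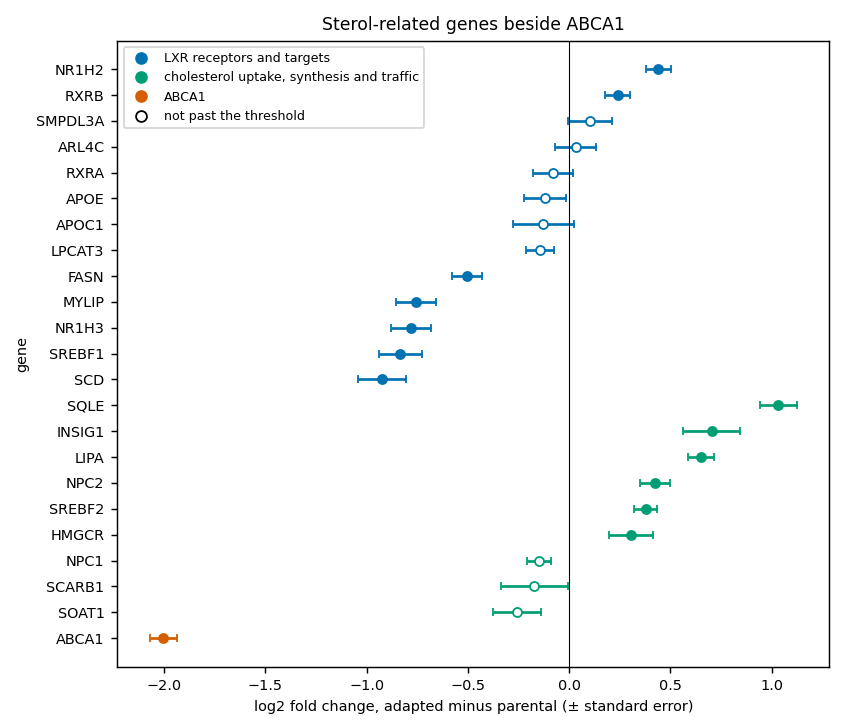
Log2 fold change (adapted minus parental; x axis, bars are limma standard errors, 3 samples per group) of tested LXR receptors and targets, reported genes of cholesterol uptake, synthesis and traffic, and ABCA1 (y axis), with filled points for adjusted p under 0.05. ABCA1 lies at -2.0, to the left of SCD at -0.93, and SQLE lies farthest right at 1.03.

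Of the 4 mitochondrial genes, 3 passed the threshold (75.0%, against 56.9% of all rows), and not all are reported here. Among those that are, ABCB6 and ABCB10 fell and ABCB8 did not pass the threshold. ABCB6, which is linked to porphyrin transport, lies at chromosome 2, 219209766 to 219219017 (minus strand). It measured 2.25, 2.50 and 1.91 log2(FPKM + 1) in parental and 1.57, 0.88 and 1.24 in adapted cells. Its replicates were spread more widely than those of the other tested genes that fell, but did not overlap (log2 fold change -0.99, SE 0.21, limma adjusted p = 0.00527). It shares 2864 exonic bases on the same strand with the read-through gene model AC068946.2, whose own level was 1.94 in parental and 2.02 in adapted cells, so reads could be split between them. ABCB10, which acts in haem synthesis at the inner membrane, had 3.10, 3.04 and 2.81 log2(FPKM + 1) in parental and 2.77, 2.68 and 2.37 in adapted cells. All adapted values were lower, by a difference near the spread (log2 fold change -0.38, SE 0.13, adjusted p = 0.0368). The call was lost without parental replicate 1 (adjusted p = 0.122), parental replicate 2 (0.111), adapted replicate 2 (0.0628) or adapted replicate 3 (0.0865), and in the fit of all rows (0.12). ABCB8, the regulatory subunit of the mitochondrial potassium channel, had 3.10, 3.22 and 3.33 in parental and 3.28, 3.81 and 3.51 in adapted cells, which overlapped (log2 fold change 0.32, adjusted p = 0.085; 0.44 and 0.00951 without adapted replicate 1).

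Of 6 genes that work with the mitochondrial members in iron-sulfur cluster and haem synthesis, 2 rose, 1 fell and 3 did not pass the threshold. SLC25A37 (mitoferrin 1), which imports iron, fell, with a change of -1.25 log2 units (limma adjusted p = 2.87e-05). ISCU, the scaffold on which iron-sulfur clusters are built, had 0.68 (adjusted p = 1.31e-04) as deposited. The 3 adapted values of ISCU, however, did not convert back to FPKM with 6 decimals as most of the table did. They did so once 0.66 was subtracted from each, as in 87 of the 147 rows that held a constant of this kind. With it subtracted, the log2 fold change of ISCU was 0.02 (adjusted p = 0.839), so that its call rested on the constant. Once all such constants were subtracted, 0 of these 6 genes rose past the threshold.

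Of the 3 tested genes with other membrane functions, ABCD4 and ABCC6 rose and ABCB9 fell. All 3 thus passed the threshold, against 56.9% of all rows. ABCD4, which releases cobalamin (vitamin B12) from lysosomes, measured 3.46, 3.39 and 3.46 log2(FPKM + 1) in parental and 4.15, 4.32 and 4.36 in adapted cells. The groups were well apart (log2 fold change 0.84, SE 0.07, limma adjusted p = 9.82e-05), and the mean FPKM went from 9.84 to 18.4. Of its 3 cobalamin partners, 2 passed the threshold (66.7%, against 56.9% of all rows). LMBRD1, the lysosomal membrane protein that works with ABCD4, rose (log2 fold change 0.56, adjusted p = 0.00779) and MMADHC, which routes cobalamin within the cell, fell (-0.37, adjusted p = 0.0123; 0.0507 in the fit of all rows). ABCC6, needed for ATP release and the prevention of ectopic calcification, had 1.05, 1.26 and 1.32 in parental and 1.97, 2.17 and 2.14 log2(FPKM + 1) in adapted cells (log2 fold change 0.88, SE 0.10, adjusted p = 3.45e-04). ABCC6 has 2 annotated pseudogenes, neither of which has a row in the table, so its value may hold reads of these copies. The same limit applies to ABCB10, with 3 annotated pseudogenes, and to ABCF2, with 2. ABCB9, a lysosomal peptide transporter, had 2.27, 2.25 and 2.28 in parental and 2.14, 1.86 and 1.99 in adapted cells. Its groups did not overlap (log2 fold change -0.27, SE 0.09, adjusted p = 0.039).

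The call of ABCB9 rested on the choice of samples and scaling. It was lost without parental replicate 1, 2 or 3 (adjusted p = 0.105, 0.0971 and 0.11), adapted replicate 2 or 3 (0.0958 and 0.0815), in the fit of all rows (0.0792) and after scaling to equal totals with genes of the mitochondrial genome left aside (0.0599). ABCB9 also shares 1590 exonic bases with ARL6IP4 and 1656 with OGFOD2 on the opposite strand, and ARL6IP4 was far higher, at 6.07 log2(FPKM + 1) in parental and 5.96 in adapted cells. Whether reads were assigned by strand is not stated, so reads within these shared bases cannot be told apart. ABCB9 has 13291 exonic bases in all.

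The non-transport genes rose or stayed within the spread, and 3 of 4 passed the threshold (75.0%, against 56.9% of all rows). ABCF1, an initiation factor that binds eIF2, had 4.91, 4.87 and 4.95 log2(FPKM + 1) in parental and 5.23, 5.28 and 5.33 in adapted cells (log2 fold change 0.37, SE 0.06, limma adjusted p = 0.00128). ABCF3, a relative of yeast factors that act on ribosomes, had 4.22, 4.14 and 4.19 in parental and 4.51, 4.50 and 4.51 in adapted cells (0.32, SE 0.06, adjusted p = 0.00203). ABCF2 had 5.0, 4.93 and 4.94 in parental and 5.24, 5.09 and 5.15 in adapted cells (0.21, SE 0.06, adjusted p = 0.0253). All 3 subfamily F genes had non-overlapping groups, as did 66.3% of all rows. However, ABCF2 lost its call without parental replicate 1, 2 or 3 (adjusted p = 0.0553, 0.0981 and 0.0878). It also shares 1914 of its 4177 exonic bases on the same strand with the gene model AC021097.2. That model's own level was 0.17 log2(FPKM + 1) in parental and 0.08 in adapted cells. ABCE1, the factor that splits ribosomes into subunits for recycling, had 4.83, 4.79 and 4.75 in parental and 4.85, 4.79 and 4.76 in adapted cells, a log2 fold change of 0.01 (SE 0.06, adjusted p = 0.846). Of 4 partners of ABCE1 in ribosome recycling and release, 2 rose and 2 did not pass the threshold. The risers were HBS1L, which rescues stalled ribosomes (log2 fold change 0.28, adjusted p = 0.01), and the release factor ETF1 (0.26, adjusted p = 0.0196). ETF1 lost its call without any 1 of the parental replicates or without adapted replicate 2 (adjusted p from 0.056 to 0.0704).

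Summed over all 45 genes, the ABC level was 400 ± 6.19 FPKM (SD, n = 3) in parental and 390 ± 9.35 FPKM (SD, n = 3) in adapted cells as deposited, and 376 ± 8.99 FPKM in adapted cells once constants were subtracted. The drug efflux sum was 143, 148 and 142 FPKM in the parental replicates and 120, 103 and 106 in the adapted replicates, with every adapted value lower. The lipid sum was 104.8, 104.6 and 99.6 in parental and 78.9, 82.3 and 76.7 in adapted cells, again without overlap. These sums are carried by abundant genes, since ABCC3 and ABCC2 outweighed the 3 drug efflux genes that rose. The other membrane genes went from 15.1 ± 0.43 to 25.3 ± 1.47 and the non-transport genes from 102.9 ± 1.96 to 121.3 ± 1.96. An exact permutation test of 3 against 3 samples cannot give a two-sided p under 0.1, and none is given for these sums.

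**Figure D4:**
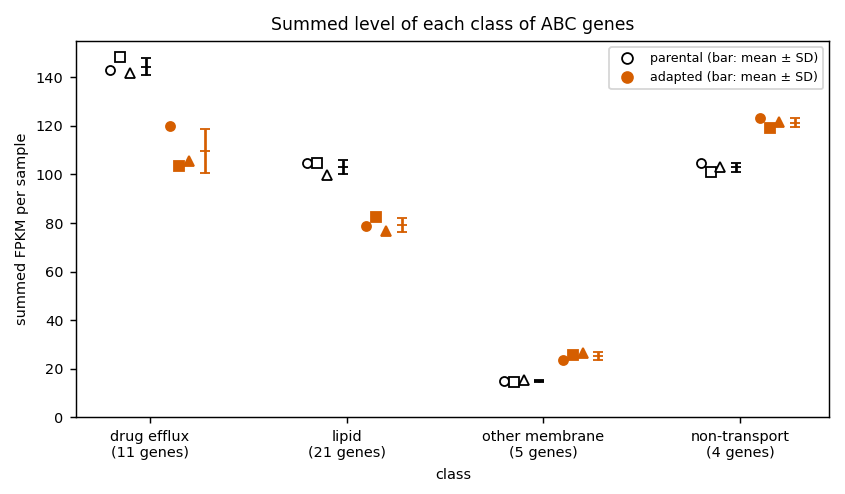
Summed FPKM per sample (y axis) of the ABC genes of 4 classes (x axis), with open black symbols for the 3 parental and filled orange symbols for the 3 adapted replicates, and bars giving the mean ± SD. Drug efflux and lipid sums are lower in all 3 adapted replicates, at 109.7 and 79.3 on average, and the sums of the other membrane and non-transport genes are higher in all 3.

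The order of the levels changed accordingly. In parental cells ABCC3 made up 19.1% of all ABC FPKM, followed by ABCA12 (9.56%), ABCF2 (7.51%), ABCF1 (7.28%) and ABCC2 (6.82%). In adapted cells ABCF1 (9.72% ± 0.53, SD, n = 3) and ABCC3 (9.63% ± 1.83, SD, n = 3) came first and did not differ beyond their spread. ABCA12 made up 4.28% there, ABCC2 2.48% and ABCA1 0.92%, compared with 4.37% for ABCA1 in parental cells.

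Of the 20 genes under the filter, 4 were listed at 0 in all 6 samples (ABCG5, ABCC12, ABCA9 and ABCC8). They comprised 4 drug efflux, 14 lipid and 2 other membrane genes. The genes nearest the limit were ABCA5 (mean 0.93) and ABCB1 (0.88) under it, and ABCG2 (1.17) and ABCC6 (1.65) above it. ABCC9 (SUR2), the regulatory subunit of potassium channels closed by ATP, had 0.17, 0.16 and 0.28 log2(FPKM + 1) in parental and 0.63, 0.67 and 0.73 in adapted cells. Its groups did not overlap, and in the fit of all rows its log2 fold change was 0.48 (limma adjusted p = 0.0029; 0.00585 to 0.018 when 1 sample was left out). ABCA13, a large member of subfamily A, lay between 0.13 and 0.21 in parental cells and at 0.29, 0.78 and 0.73 in adapted cells, which did not overlap either (log2 fold change 0.44, adjusted p = 0.0891). ABCB11, the bile salt export pump, was at 0.07, 0.06 and 0.08 in parental and 0.03, 0 and 0 in adapted cells, a decrease that passed the threshold in that fit (adjusted p = 0.0113) at a level next to 0.

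The other lipid genes under the filter showed little signal. ABCA5, a lysosomal lipid transporter, had 0.90, 0.91 and 0.93 log2(FPKM + 1) in parental and 1.13, 0.71 and 1.0 in adapted cells. ABCA4, the retinal transporter of retinylidene lipids, lay between 0.31 and 0.57 in all samples. ABCA8 reached no more than 0.26, ABCB4, the phosphatidylcholine floppase of bile, and ABCA10 no more than 0.13, and ABCA6, ABCG4, ABCG8 and ABCD2 were next to 0 in every sample. ABCA6, ABCA8, ABCA9 and ABCA10 lie in a row with ABCA5 on chromosome 17, between 68867292 and 69327244, and ABCA5 was the only gene of that row above 0.3 in any sample. Likewise ABCB1 and ABCB4 are neighbours on chromosome 7 (87401697 to 87713323), and ABCB1 alone exceeded 0.2. ABCC1 and ABCC6, by contrast, are neighbours on chromosome 16 (15949577 to 16223522), on opposite strands, and both rose. The depth is not known, so a level of 0 gives no upper limit.

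**Figure D5:**
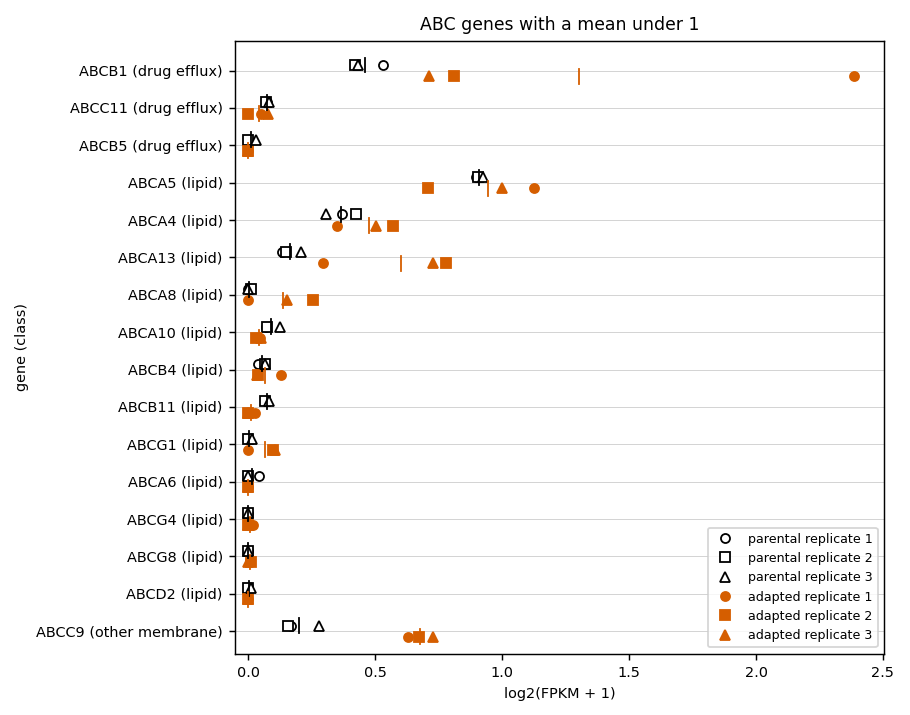
Level in log2(FPKM + 1) (x axis) of the 16 ABC genes with a mean under 1 that were above 0 in at least 1 sample (y axis, with class), with open black symbols for the 3 parental and filled orange symbols for the 3 adapted replicates and ticks for the means. ABCB1 reaches 2.39 in adapted replicate 1 and no more than 0.81 elsewhere, and the 3 adapted values of ABCC9 lie above its parental values.

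The adapted replicates were less alike than the parental ones. This held over the whole table, with correlations of 0.991 to 0.996 among adapted and 0.997 or above among parental replicates, and also in the ABC genes. The median SD over the 25 tested genes was 0.04 log2 units in parental and 0.11 in adapted cells, and 22 of the 25 had the larger SD in adapted cells. Adapted replicate 1 was the farthest from the other adapted samples for 16 of the 25 genes, replicate 2 for 7 and replicate 3 for 2. In the parental samples the same counts were 7, 9 and 9. Without adapted replicate 1, the genes past the threshold numbered 21, with ABCG2, ABCB8 and ABCA2 added and none of the 18 lost. The count over all rows went up as well, from 7202 to 8370 of 12656. In these bulk samples, fewer cells that express a gene and less RNA of it per cell cannot be told apart.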

How the data were processed

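The authors deposited 1 table with 1 log2 column for each of the 6 samples. Neither the unit nor the log base is named: once the log2 and an added 1 were undone, all but 147 rows held numbers of 6 decimals, and their sums per sample pointed to a unit scaled by length, here called FPKM. The submitters' processing notes name Bowtie2 2.1.0, STAR, edgeR and hg38 without their roles, and the annotation is not given in the sources used here. Depth is not known, so errors are spreads between replicates alone.

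Columns were matched to samples by group and replicate number. The study's methods name total RNA, whereas the labels describe an RNase R digestion, and a supplementary file of the study gives another dose than the labels, which were followed here. The authors name DESeq2 in their methods, which needs counts. Therefore limma 3.58.1 in R 4.3.3 (lmFit, eBayes with a trend, unpaired) was used on rows with a mean of at least 1 (12656), and p-values were adjusted by Benjamini-Hochberg and called under 0.05. In simulated data, 89% of 200 rows changed by a log2 fold change of 1 were called, and 3.78% of the calls were unchanged rows (12540 rows drawn on). The simulation gave both groups the same spread and changed far fewer rows than were called here. Its rates may therefore not hold for these data.

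Constants were sought in rows off the 6-decimal grid (tolerance 0.01 millionths); 1 ABC gene held such a constant, and all results use the values as deposited unless stated. Classes and related lists were written by hand, and the members and lists were chosen with earlier results of these data known. The text gives per-sample values for every ABC gene past the threshold and for ABCB1, ABCG2, ABCC1, ABCA1, ABCG1 and ABCB10, and names up to 2 risers and 2 fallers of each related list. NR1H3, TAP1 and LIPA were named after their values were seen. Some genes that these rules name are not reported here, although counts and sums include them. Gene coordinates and exon overlaps came from GENCODE v29 (GRCh38), and promoter windows from RefSeq (GRCh38.p14), matched by symbol. Alternatives changed the pseudocount (1 against 0.1), filter, scaling, eBayes setting, replicate block and rows with constants, and left out each sample in turn.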

Additional observations from a re-analysis of the deposited data

How the results depend on the processing

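Of the 17 ABC genes past the threshold that are reported, 14 kept an adjusted p under 0.05 under each of the other filters, scalings and fits and without each sample, wherever they were tested, and 0 changed direction, while ABCB10, ABCB9 and ABCF2 lost it under at least 1 of these. Of the others, ABCA7, ABCB8, ABCG2 and ABCA2 passed it under at least 1. With a mean of at least 3 required, 17 ABC genes were tested, 12 passed and 4 fell, and 4532 rows passed in all against 7202, since fewer rows were tested. Requiring a log2 fold change of at least 1 in size, an alternative chosen after seeing the data, left 7 of the 18 ABC genes past the threshold, 3 higher and 4 lower. Leaving out 1 sample at a time gave between 15 and 21 ABC genes, of which 10 to 13 rose and 5 to 8 fell, and 5763 to 8370 rows in all. The fit of all rows without each sample, for ABCB1, ABCC9 and ABCB11, was also chosen after seeing the data.

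Same-numbered samples did not deviate together (correlations -0.05, -0.03 and -0.02), so the numbers were not taken to pair them. With the replicate number as a block, 18 ABC genes and 6761 rows passed; ABCG2 was gained (adjusted p = 0.0488) and ABCB9 lost (0.0594). Scaling moved the median log2 fold change of all rows by less than 0.1, and higher calls made up between 51.1% (quantile normalization) and 59.1% (equal sum without mitochondrially encoded genes) of all calls, against 54.0%.

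The direction turned for 2 reported genes that had not passed the threshold: ABCE1 (-0.0056 when centred on the median, -0.0034 without parental replicate 3 and -0.0098 without adapted replicate 1) and ABCA2 (0.0086 with equal sums without mitochondrially encoded genes, 0.057 without adapted replicate 2 and 0.02 without adapted replicate 3). Over all samples left out in turn, these ranged from -0.0098 to 0.034 and from -0.18 to 0.057. The cause was not tested. The unknown depth limits what can be read from genes near 0.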

Other observations

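ABC proteins that carry other symbols lie outside the symbol rule. TAP2, a subunit of the peptide transporter of antigen presentation, differed by 0.20 log2 units (limma adjusted p = 0.0424), a call lost under 9 alternatives, among them leaving out any 1 parental replicate or adapted replicate 3 (adjusted p from 0.0967 to 0.142). Its partner subunit TAP1 had 0.19 (adjusted p = 0.0603; 0.0038 without adapted replicate 1). TAPBP (tapasin), which docks the transporter to MHC class I, rose by 0.43 (adjusted p = 0.00397). CFTR, the chloride channel of subfamily C, lay under the filter, at 0.07, 0.14 and 0.16 log2(FPKM + 1) in parental and 0.96, 0.42 and 0.19 in adapted cells, with adapted replicate 1 again the highest.

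Of 4 tested xenobiotic receptors and related genes, MVP (major vault protein) rose (log2 fold change 0.34, limma adjusted p = 0.00185) and NFE2L2 (NRF2), the oxidative stress regulator of several ABCC genes, fell (-0.42, adjusted p = 0.00194). NR1I2 (the pregnane X receptor) was listed at 0 in all samples. Of 5 peroxisomal genes that act beside the subfamily D members, PEX3, needed to build the membrane, fell (-0.55, adjusted p = 3.29e-04), opposite in sign to ABCD3. PEX19, the carrier of peroxisomal membrane proteins, had -0.17 (adjusted p = 0.0461), and ACSL1, an acyl-CoA synthetase, had 0.74 (adjusted p = 0.0398) with overlapping groups. The calls of PEX19 and ACSL1 were both lost without any 1 of the parental replicates, adapted replicate 2 or adapted replicate 3 (adjusted p from 0.0769 to 0.154). LIPA, the lysosomal cholesteryl ester hydrolase, rose by 0.65. KCNJ8, the pore subunit that pairs with ABCC9, lay under the filter at 0.57 ± 0.07 log2(FPKM + 1) (SD, n = 3) in parental cells and 1.01 ± 0.21 (SD, n = 3) in adapted cells.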
